A study of Mus musculus with 4 samples.

Results

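The tumour necrosis factor (TNF) superfamily was examined in mouse T cells that had been cultured under conditions that induce regulatory T cells (Treg cells). Its members were found by gene symbol: all genes named Tnfsf, Tnfrsf or Traf with a number, together with Tnf, Lta, Ltb, Ltbr, Fas, Fasl, Cd27, Cd40, Cd40lg and Cd70. This gave 43 of the 18193 genes that had a probe set of their own on the array, measured by 72 of its 45037 probe sets, a probe set being a group of short probes for 1 transcript. They were 13 ligands, 23 receptors, 6 Traf adaptors and Tnfsf13os, a long non-coding RNA that carries a ligand's symbol. Tnfsf12, Tnfsf13, Tnfsf15, Tnfsf18, Tnfrsf26 and Traf3 were not analysed here.

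The comparison was between T cells from KO and from wild-type (WT) mice, with 2 arrays per genotype. Naive T cells had been isolated from spleen and kept for 3 days under Treg-inducing conditions, and RNA of the bulk culture was labelled from 6 micrograms per array for single-colour Affymetrix arrays. The labels name neither the gene removed in the KO nor the inducing agents, strain, age or sex, and they give each array its own numbered set of mice, so several mice may have been pooled. The p-values measure the spread between these arrays, which may be partly technical. In bulk RNA a change in the number of cells of a type and a change in RNA per cell cannot be told apart.

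Ligands of the family are mostly membrane-bound trimers that bind receptors on neighbouring cells. Most receptors recruit Traf adaptors, which lead to NF-kappaB and MAP kinase signalling, while those with a cytoplasmic death domain can start apoptosis. On T cells the receptors Tnfrsf4 (OX40), Tnfrsf9 (4-1BB), Tnfrsf18 (GITR) and Tnfrsf1b (TNF receptor type 2) are known as costimulatory, are induced by activation and are high on Treg cells. Decoy receptors bind ligands without passing on a signal.

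Signals are linear MAS5 values in arbitrary units, and their trimmed mean was the same on every array. They compare the same gene between arrays and do not rank different genes. The test was limma's moderated test on log2(signal + 16), with the Benjamini-Hochberg adjustment over all 27022 probe sets tested. A gene counts as called, and as risen or fallen, where the adjusted p lay below 0.05. Each fold change is KO over WT on the log2(signal + 16) scale, given with its standard error (SE), and understates the change of dim genes. Across arrays of different genotype the log2 signals correlated at 0.933 to 0.941, against 0.977 between the KO arrays and 0.979 between the WT arrays, as correlations across probe sets that are not independent replicates.

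Markers of T cells were present on all arrays, and markers of other lineages differed between the genotypes. Of the 5 measured T cell markers Cd3g, Cd3e and Cd3d rose, Cd5 fell (log2 fold change -0.82 ± 0.094, adjusted p = 0.00079) and Cd4 was not called (log2 fold change -0.33 ± 0.17). The summed signal of these 5 was 53492 and 50080.2 in KO cells, against 36207 and 34993 in WT cells, most of it from Cd3d and Cd3g. Of the 4 Treg markers Il2ra and Ctla4 rose, and Ikzf2 and Foxp3 fell, Foxp3 having signals of 947 and 1101 in KO cells, against 2177 and 2033 in WT cells. Both CD8 markers rose, their summed signal being 2653 and 2196 in KO cells, against 881 and 924 in WT cells. Of 7 mast cell and basophil markers 6 rose, with sums of 13646 and 8885 in KO cells, against 797 and 1047 in WT cells. Most of the WT sums came from Kit (616 and 713 in WT cells), the marker that was not called. WT signals of Cpa3, Fcer1a, Ms4a2 and the neutrophil marker S100a9 lay below 33.2, the limit of the filter on dim signals. These genes passed the filter through their KO signals. The 3 tested of 4 plasma cell markers rose, as did the 2 tested of 4 NK cell markers, 2 of 4 tested neutrophil markers and 3 of 9 markers of dendritic cells, monocytes and macrophages. None of the 4 tested B cell markers passed in limma, also at an unadjusted p below 0.05, and their list summed to 1203 and 846 in KO cells, against 551 and 1480.4 in WT cells. The second WT array thus had the highest B cell sum. No marker had a signal of 0 on any array, although the NK receptor gene Ncr1, the B cell factor gene Pax5 and others were too dim to be tested.

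Of the 43 family members 41 passed the filter on dim signals, and 15 of these were called, 12 higher and 3 lower in KO cells. That is 36.6% of the members tested, where 20.3% of all 12547 genes tested were called with 1 probe set per gene. By direction, 29.3% of the members were called higher and 7.32% lower, beside 10.5% and 9.87% of all genes. The median log2 fold change was 0.23 over the members and -0.026 over all genes. Over all 27022 probe sets tested, 17.1% were called, 7.89% higher and 9.17% lower. KO and WT arrays did not overlap for 29 members (70.7%), as for 62.7% of all genes, so lack of overlap alone was common. Among the 12 that rose, 7 rose by 2-fold or more, and none of the 3 falls reached 2-fold. Of the 26 members not called, 17 had a 95% confidence interval within 1 on the log2 scale of no change, and 9 had a wider one. The count of rises was 7 without WT array 1 or without KO array 2, and that of falls was 1 without WT array 2. Without the intensity trend of the variance 5 members were called higher and 1 lower. The 7 called members with further probe sets had 9 of them, of which 6 were tested, 3 were called the same way and 0 the opposite way.

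**Figure D1:**
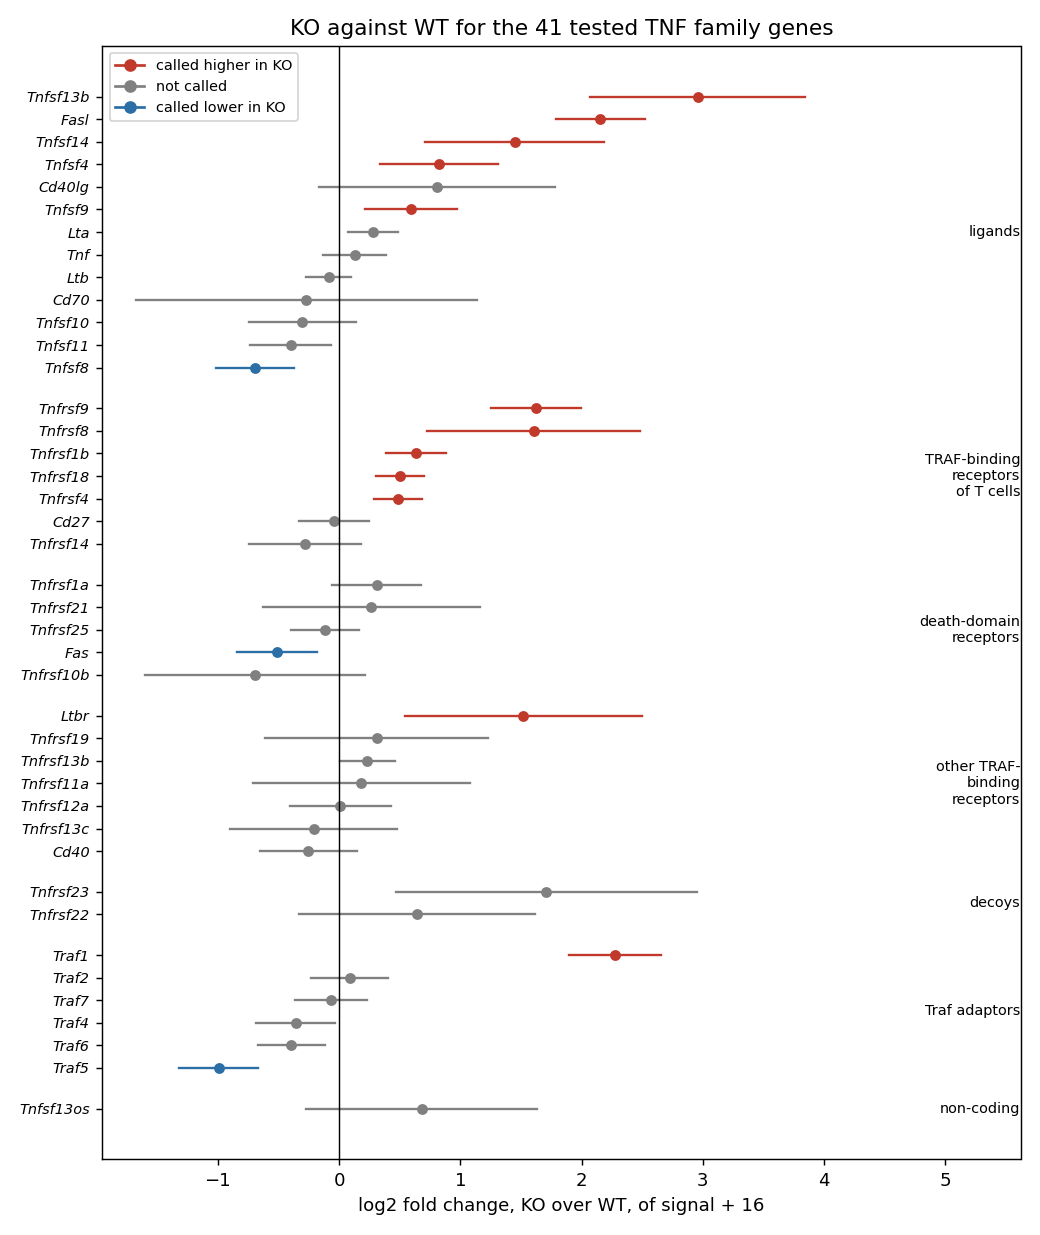
Log2 fold change, KO over WT, of signal + 16 for the 41 tested members, ordered by role from top to bottom. Points are fitted values from 2 KO and 2 WT arrays and bars their 95% confidence intervals in limma, without adjustment over genes; the 12 members called higher are red, the 3 called lower blue and the 26 not called grey.

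The promoters of Traf1, Fasl, Tnfrsf9 and Tnfsf13b are shown. These 4 genes were chosen because they rose under every processing alternative in which they were tested. There were 14 such alternatives for the first 3 and 13 for Tnfsf13b. Tnfsf13b was too dim to be tested under the alternative with a stricter filter on dim signals. Its WT signals lay below the limit of the filter used here, and a further probe set was not called (log2 fold change -0.15 ± 0.39). Each window runs from 250 bases before a transcript's start to 50 bases after it, 5′ to 3′ on the gene's strand, from RefSeq on assembly GRCm38.p6. Capitals mark a match to a kappaB motif (GGG, then NN, then TTTCC), an AP-1 motif (TGANTCA) or a STAT motif (TTCNNNGAA), searched on both strands, N being any base.
Traf1 at chr2:34961723-34962022, minus strand: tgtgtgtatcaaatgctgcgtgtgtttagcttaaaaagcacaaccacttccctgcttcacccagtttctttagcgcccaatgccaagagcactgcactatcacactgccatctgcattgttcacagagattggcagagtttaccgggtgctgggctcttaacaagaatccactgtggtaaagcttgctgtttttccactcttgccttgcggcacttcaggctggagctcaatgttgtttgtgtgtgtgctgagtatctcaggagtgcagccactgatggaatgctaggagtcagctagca
Fasl at chr1:161788446-161788745, minus strand: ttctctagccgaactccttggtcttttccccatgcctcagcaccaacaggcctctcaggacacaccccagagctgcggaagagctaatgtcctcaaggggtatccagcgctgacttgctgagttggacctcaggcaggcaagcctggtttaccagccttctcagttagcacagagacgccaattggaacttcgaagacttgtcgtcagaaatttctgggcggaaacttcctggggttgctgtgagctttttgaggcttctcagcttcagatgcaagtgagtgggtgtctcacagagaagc
Tnfrsf9 at chr4:150927749-150928048, plus strand: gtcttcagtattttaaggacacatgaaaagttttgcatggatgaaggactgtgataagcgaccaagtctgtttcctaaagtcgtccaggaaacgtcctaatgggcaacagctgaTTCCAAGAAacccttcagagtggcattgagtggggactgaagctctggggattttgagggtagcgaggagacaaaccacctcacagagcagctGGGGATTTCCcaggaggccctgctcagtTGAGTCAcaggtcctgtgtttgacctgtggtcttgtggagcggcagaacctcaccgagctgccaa
Tnfsf13b at chr8:10006217-10006516, plus strand: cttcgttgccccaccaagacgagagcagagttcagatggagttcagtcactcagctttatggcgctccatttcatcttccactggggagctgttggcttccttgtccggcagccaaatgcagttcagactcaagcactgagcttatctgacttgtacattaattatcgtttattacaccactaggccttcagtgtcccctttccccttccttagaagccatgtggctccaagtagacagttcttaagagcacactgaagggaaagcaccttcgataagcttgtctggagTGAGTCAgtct
The windows of Traf1 and Fasl held no match to these letters. The Tnfrsf9 window held 1 match to each motif, none overlapping another, with the kappaB match GGGGATTTCC beginning 43 bases before the start. An upstream Tnfrsf9 window of another transcript start held none. Where a gene has several windows, one with the most matches was chosen to be printed after the matches were seen. The Tnfsf13b window held 1 AP-1 match, at base 290, after the start, and a second window of the gene overlaps it.

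Of the 12 members that rose 10 had a promoter in the RefSeq table, and an AP-1 match was found for 4 of the 10, a STAT match for 3 and a kappaB match for 1. Among all 27025 genes of the table the shares were 8.97% for AP-1, 9.55% for STAT and 1.89% for kappaB. Over the 34 members with a promoter, whatever their change, 5 had an AP-1 match, 9 a STAT match and 4 a kappaB match. A match is a run of letters and not a measured binding site.

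Ligands moved in both directions, with 5 of 13 higher and 1 lower in KO cells (38.5% and 7.69%, beside 10.5% and 9.87% of all genes). Tnfsf13b, which encodes the B cell survival factor BAFF, had signals of 264 and 158 in KO cells, against 16.3 and 8.98 in WT cells. Both KO arrays lay far above both WT arrays, and the change was 7.76-fold on the scale of signal + 16 (log2 fold change 2.96 ± 0.39, adjusted p = 0.0015). The WT signals lay below the filter's limit of 33.2, so the gene passed the filter through its KO signals and the size of the change depends on the pseudocount. A further probe set of the gene had 63.9 and 47.2 in KO cells, against 47.9 and 81.5 in WT cells, with overlapping groups (log2 fold change -0.15 ± 0.39), and another was too dim to be tested. BAFF is known mainly from myeloid cells. Over 9 markers of dendritic cells, monocytes and macrophages the summed signal was 4561 and 4144 in KO cells, against 1403 and 4007 in WT cells, and the part of such cells in the rise was not tested. Of these markers Cd14, Lyz2 and Adgre1 rose, Lyz2 having signals of 205 and 144 in KO cells, against 30.1 and 41.7 in WT cells. H2-Aa, which also marks B cells, had 2241 and 2075 in KO cells, against 654 and 2601 in WT cells and was not called. Nor were Itgax, Cd74, Flt3, Zbtb46 and Csf1r. Groups also overlapped for Flt3 (log2 fold change 0.062), Zbtb46 (-0.027) and Csf1r (-0.11). For Itgax (0.70) and Cd74 (0.69) both KO arrays lay above both WT arrays. For Tnfsf13b pseudocounts of 1 and 64 gave log2 fold changes of 3.96 and 1.82. The mean of its probe sets that passed the filter gave 1.40.

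Fasl, the death-inducing ligand of Fas on cytotoxic and activated T cells, had signals of 1753 and 1854 in KO cells, against 346 and 445 in WT cells. The lower KO signal was several times the higher WT one, and the change was 4.45-fold (log2 fold change 2.15 ± 0.16, adjusted p = 9.04e-05). Its second probe set rose too, with 521 and 515 in KO cells, against 176 and 178 in WT cells (log2 fold change 1.47 ± 0.18, adjusted p = 0.00121). Markers of CD8 T cells rose in the same arrays as given above. The 4 NK cell markers summed to 3509 and 2294 in KO cells, against 239 and 426 in WT cells. Most of these NK sums came from Klrd1 (2406 and 1655 in KO cells) and Tyrobp (1027 and 574 in KO cells). Ncr1 and Klra8 were too dim to be tested. The part of CD8 T cells and NK cells in the rise of Fasl was not tested.

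Ligands of costimulatory receptors changed less. Tnfsf14 (LIGHT), which binds Tnfrsf14 and Ltbr, had signals of 317 and 408 in KO cells, against 175 and 83.3 in WT cells, and rose 2.73-fold (log2 fold change 1.45 ± 0.32, adjusted p = 0.0183). The WT arrays differed more from each other here than the KO arrays did. Tnfsf4, the OX40 ligand, had signals of 452 and 626 in KO cells, against 265 and 325 in WT cells, and rose 1.77-fold (log2 fold change 0.82 ± 0.21, adjusted p = 0.0321). Tnfsf9, the 4-1BB ligand, had 642 and 604 in KO cells, against 375 and 441 in WT cells, and rose 1.51-fold (log2 fold change 0.59 ± 0.17, adjusted p = 0.043). For both the groups did not overlap, but the distance was small beside that of Fasl. Tnfsf8, the CD30 ligand, went the other way with signals of 638 and 686 in KO cells, against 1028 and 1138 in WT cells. Both KO arrays lay below both WT arrays, and the WT signal was 1.62 times that of KO cells (log2 fold change -0.70 ± 0.14, adjusted p = 0.0118).

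The 7 remaining ligands were not called. Tnf, the founding inflammatory cytokine of the family, had signals of 1837 and 1935 in KO cells, against 1684 and 1763 in WT cells, with a log2 fold change of 0.13 ± 0.11 and a 95% interval of -0.13 to 0.39 (adjusted p = 0.489). Lta, which encodes lymphotoxin alpha, had 16062 and 16123 in KO cells, against 14003 and 12565 in WT cells (log2 fold change 0.28 ± 0.090, adjusted p = 0.0681). Ltb, the membrane partner of lymphotoxin alpha, had 24156 and 22928 in KO cells, against 24353 and 25586 in WT cells and a 95% interval of -0.27 to 0.10 for its log2 fold change. These 3 genes lie side by side in the genome, and all 3 intervals stayed well inside a 2-fold change. Tnfsf11 (RANKL, known for osteoclast formation) had a log2 fold change of -0.40 ± 0.15 (adjusted p = 0.098), and Tnfsf10 (TRAIL) of -0.30 ± 0.19 with overlapping groups. Cd40lg, the helper signal to B cells, was dim with 61.2 and 79.6 in KO cells, against 21.4 and 48.4 in WT cells (log2 fold change 0.81 ± 0.42, adjusted p = 0.236). Cd70 had 34.0 and 57.4 in KO cells, against 21.2 and 127 in WT cells, so the WT arrays spanned the KO values, and its interval of -1.68 to 1.14 left a 2-fold change in either direction within reach.

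Limits of the ligand calls were as follows. The calls of Tnfsf4, Tnfsf8, Tnfsf9 and Tnfsf14 were lost without the intensity trend, in which limma lets the variance depend on the signal level, and those of Tnfsf4 and Tnfsf9 also without the filter on dim probe sets. Leaving out any 1 array ended the call of Tnfsf9, leaving out WT array 1 or KO array 2 that of Tnfsf4, WT array 2 that of Tnfsf8 and KO array 2 that of Tnfsf14.

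**Figure D2:**
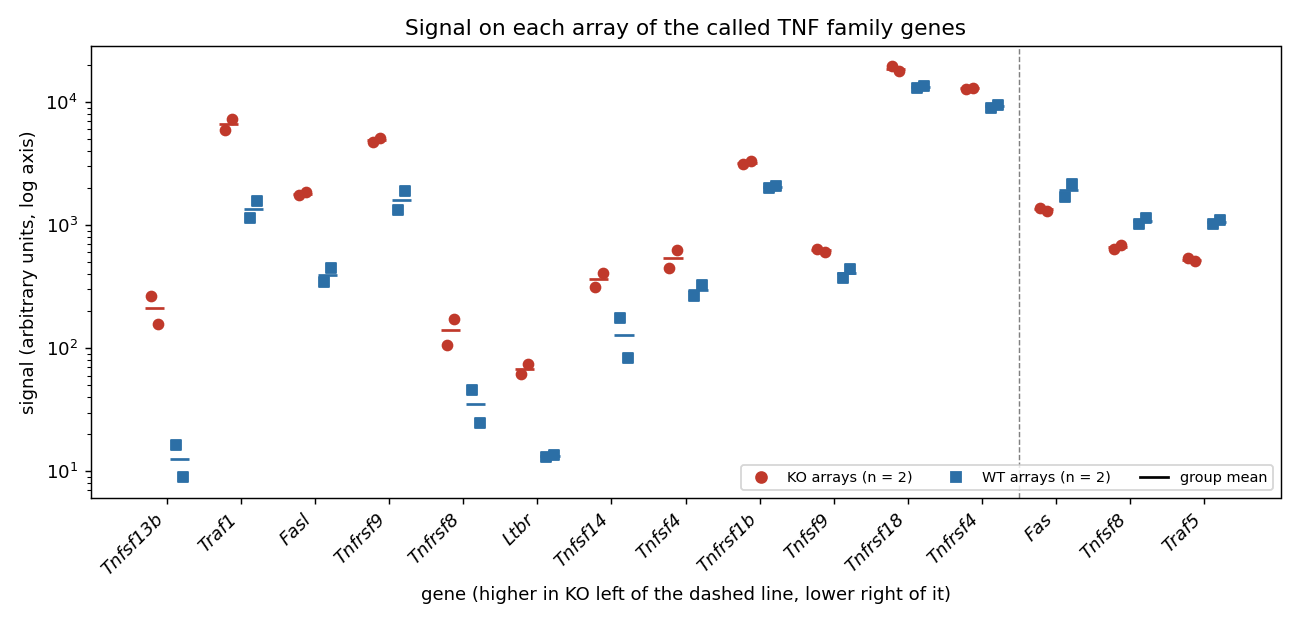
Signal (arbitrary units, log axis) on each array for the 15 called members, ordered by fold change, with red circles for the 2 KO arrays, blue squares for the 2 WT arrays and lines for group means. Groups did not overlap for any of the 15, nor for 62.7% of all genes tested. The distance was wide for Tnfsf13b, Traf1 and Fasl and narrow for Tnfrsf4, Tnfrsf18 and Fas.

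Among the 7 receptors that are known from T cells and bind Traf adaptors, 5 rose (71.4%) and none fell. Over all genes tested 10.5% rose and 9.87% fell. Tnfrsf9, which encodes 4-1BB, had signals of 4748 and 5115 in KO cells, against 1332 and 1891 in WT cells. All KO values exceeded all WT values, and the change was 3.08-fold (log2 fold change 1.62 ± 0.16, adjusted p = 0.00038). Its other tested probe set rose by a like amount, with 3629 and 4742 in KO cells, against 1171 and 1682 in WT cells (log2 fold change 1.55 ± 0.19, adjusted p = 0.00105). Tnfrsf8, which encodes CD30, a receptor of activated lymphocytes, had signals of 107 and 172 in KO cells, against 45.5 and 24.6 in WT cells. It was dim in WT cells, and its rise of 3.04-fold had a wide error (log2 fold change 1.60 ± 0.38, adjusted p = 0.024).

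Tnfrsf1b had signals of 3109.7 and 3299 in KO cells, against 2020.1 and 2099 in WT cells, and rose 1.55-fold (log2 fold change 0.63 ± 0.11, adjusted p = 0.00508). Its second probe set did not differ beyond the spread of its arrays, with 95.4 and 127 in KO cells, against 90.7 and 136 in WT cells, and the call was lost when the probe sets were averaged (log2 fold change 0.31). Tnfrsf18 (GITR) had signals of 19457 and 17865 in KO cells, against 12951 and 13405 in WT cells, and rose 1.41-fold (log2 fold change 0.50 ± 0.087, adjusted p = 0.00595). Tnfrsf4 (OX40) had signals of 12772 and 13074 in KO cells, against 8986 and 9467 in WT cells, and rose 1.40-fold (log2 fold change 0.49 ± 0.086, adjusted p = 0.00661). For both genes the arrays of a genotype were close to each other and the groups did not overlap.

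Cd27 and Tnfrsf14 were the receptors of this group that were not called. Cd27, a receptor that naive and memory T cells carry, had signals of 1637 and 1872 in KO cells, against 1708 and 1905 in WT cells, with overlapping groups and a 95% interval of -0.33 to 0.25 for its log2 fold change. Tnfrsf14 (HVEM), which can bind Tnfsf14 as well as the inhibitory receptor Btla, had 345 and 495 in KO cells, against 499 and 512 in WT cells (log2 fold change -0.28 ± 0.20, adjusted p = 0.391), and 1 KO array lay just below the WT arrays. Without the intensity trend the calls of Tnfrsf1b, Tnfrsf4, Tnfrsf8 and Tnfrsf18 were lost. Leaving out WT array 1 ended those of Tnfrsf4 and Tnfrsf18, and that of Tnfrsf8 was lost without WT array 2, without KO array 2 or without the filter. With a pseudocount of 64 the log2 fold change of Tnfrsf8 was 1.03.

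Of the 5 receptors with a death domain, Fas fell and the other 4 were not called (20% called, beside 20.3% of all genes). Fas, the receptor through which Fasl kills, had signals of 1390.4 and 1291 in KO cells, against 1699 and 2161 in WT cells. The KO arrays lay below the WT arrays, which differed more from each other, and the WT signal was 1.43 times that of KO cells (log2 fold change -0.51 ± 0.14, adjusted p = 0.0438). This call was close to the threshold and ended under 7 of 14 alternatives, among them the centring of each array on its median. Without WT array 2 the log2 fold change was -0.34. Tnfrsf1a, the TNF receptor type 1, had 1044 and 1088 in KO cells, against 747 and 980.0 in WT cells (log2 fold change 0.31 ± 0.16, adjusted p = 0.228). Tnfrsf25 (DR3), which costimulates T cells, had 1979 and 2329 in KO cells, against 2257 and 2393 in WT cells, with a log2 fold change of -0.11 ± 0.12. Tnfrsf10b, the mouse TRAIL receptor, was dim at 30.9 and 27.2 in KO cells, against 54.7 and 58.6 in WT cells (log2 fold change -0.69 ± 0.40, adjusted p = 0.278), and Tnfrsf21 (DR6) was dim with overlapping groups.

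Receptors known mainly from other cells showed 1 rise among 7 tested (14.3%, beside 10.5% of all genes). Ltbr, the lymphotoxin beta receptor of stromal and myeloid cells, had signals of 61.5 and 75.0 in KO cells, against 13.2 and 13.5 in WT cells. The WT signals lay below the filter's limit, so that this gene too passed it through its KO signals, and the rise of 2.86-fold was near the threshold (log2 fold change 1.52 ± 0.43, adjusted p = 0.0437). The call ended with a pseudocount of 1, without the filter and when any 1 array was left out. Here pseudocounts of 1 and 64 gave log2 fold changes of 2.27 and 0.77. The part of other cell types in this rise was not tested, and marker sums of myeloid cells are given beside Tnfsf13b. Tnfrsf13b (TACI), a receptor of B cells for BAFF, had 5111 and 5466 in KO cells, against 4659 and 4348 in WT cells (log2 fold change 0.23 ± 0.10, adjusted p = 0.152). Tnfrsf13c, the BAFF receptor, had 469 and 308 in KO cells, against 326 and 598 in WT cells, and Cd40, the receptor of B cells and other antigen-presenting cells, had 606 and 748 in KO cells, against 904 and 718 in WT cells. Groups overlapped for Tnfrsf13c and Cd40, as they did for all 4 tested B cell markers, but not for Tnfrsf13b. A further Cd40 probe set did not overlap, with 604 and 653 in KO cells, against 738 and 794 in WT cells. Another Cd40 probe set overlapped, and neither was called. Tnfrsf12a, the receptor of Tnfsf12, had a log2 fold change of 0.010 ± 0.18, and Tnfrsf11a (RANK) and Tnfrsf19 were dim with overlapping groups.

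None of the 2 tested decoy receptors was called in limma, and 1 had an unadjusted p below 0.05. Tnfrsf23, a mouse decoy receptor for TRAIL, had signals of 71.2 and 83.6 in KO cells, against 1.47 and 30.6 in WT cells (log2 fold change 1.71 ± 0.54, adjusted p = 0.0652). Both WT signals lay below the filter's limit of 33.2, so this gene too passed the filter through its KO signals. The WT arrays differed widely, and without WT array 2 the log2 fold change was 2.42, resting on the WT signal of 1.47. Pseudocounts of 1 and 64 gave Tnfrsf23 log2 fold changes of 3.14 and 0.84, and with 64 Tnfrsf23 was called in limma (adjusted p = 0.0451). Its neighbour Tnfrsf22, another decoy for TRAIL, had 93.8 and 163 in KO cells, against 45.8 and 115 in WT cells, with overlapping groups. Tnfrsf11b (osteoprotegerin, the decoy for RANKL) and Tnfrsf17 (BCMA, a receptor of plasma cells) were not tested. Tnfrsf17 had 4.45 and 2.98 in KO cells, against 16.6 and 21.6 in WT cells, while the plasma cell gene Jchain had 4841 and 2421 in KO cells, against 65.1 and 66.2 in WT cells. The non-coding Tnfsf13os had 53.5 and 66.9 in KO cells, against 22.7 and 42.0 in WT cells (log2 fold change 0.68 ± 0.42, adjusted p = 0.309).

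Adaptors split as well, with 1 of 6 higher and 1 lower in KO cells (16.7% each, beside 10.5% and 9.87% of all genes). Traf1, a Traf protein without the RING domain of a ubiquitin ligase, which joins Traf2 at receptors such as 4-1BB, had signals of 5979 and 7219.9 in KO cells, against 1142 and 1582 in WT cells. Every KO value was several times every WT value, a change of 4.84-fold (log2 fold change 2.28 ± 0.17, adjusted p = 8.29e-05). Its second probe set rose as well, with 2946 and 4155 in KO cells, against 933 and 1591 in WT cells (log2 fold change 1.51 ± 0.25, adjusted p = 0.00436). Traf5, which also binds receptors of this family, had signals of 539 and 507 in KO cells, against 1018 and 1098 in WT cells, and the WT signal was 1.99 times that of KO cells (log2 fold change -0.99 ± 0.14, adjusted p = 0.00237). A second probe set of Traf5 had 68.2 and 57.6 in KO cells, against 88.5 and 57.1 in WT cells, with overlapping groups. When both were averaged the log2 fold change of Traf5 was -0.57 and the call was lost.

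The other 4 adaptors were not called by the probe set that stands for the gene. Traf2, the ubiquitin ligase partner of Traf1, had signals of 952 and 1086 in KO cells, against 914 and 1001 in WT cells, with overlapping groups and a 95% interval of -0.23 to 0.41 for its log2 fold change. Traf6, which also serves interleukin-1 and Toll-like receptors, had 1440.0 and 1621 in KO cells, against 2073 and 1954 in WT cells (log2 fold change -0.39 ± 0.12, adjusted p = 0.0585). This probe set was called with the lowest 60% of probe sets left out (adjusted p = 0.0482) and without KO array 2 (adjusted p = 0.0491). A further Traf6 probe set was called lower, with 185 and 189 in KO cells, against 352 and 296 in WT cells (log2 fold change -0.74 ± 0.21, adjusted p = 0.0428), and the other 2 tested had log2 fold changes of -0.26 and -0.33 and were not called. Traf4 had a log2 fold change of -0.36 ± 0.14 (adjusted p = 0.124), and Traf7 of -0.068 ± 0.13. KO arrays lay below WT arrays for Traf4, Traf6 and Traf7, where 62.7% of all genes tested had no overlap in either direction. Of the 6 adaptors measured Traf1 had the largest log2 fold change.

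Ligands and receptors of a pair were set side by side for 18 pairs known to bind each other. Both partners were called in 5 pairs, 1 partner in 6 and neither in 7. Both rose in 3 pairs, namely Tnfsf4 with Tnfrsf4 (log2 fold changes of 0.82 and 0.49), Tnfsf9 with Tnfrsf9 (0.59 and 1.62) and Tnfsf14 with Ltbr (1.45 and 1.52). The calls of Ltbr and Tnfsf9 each ended when any 1 array was left out, and that of Ltbr also with the array number as a block (adjusted p = 0.0503). In 2 pairs both partners were called, but in opposite directions. Fasl rose (2.15) while Fas fell (-0.51), and Tnfsf8 fell (-0.70) while Tnfrsf8 rose (1.60). Tnfsf13b rose (2.96), whereas its receptors Tnfrsf13b (0.23) and Tnfrsf13c (-0.21) were not called. Pairs that share a partner are not independent, and whether partners are on the same cell was not measured.

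**Figure D3:**
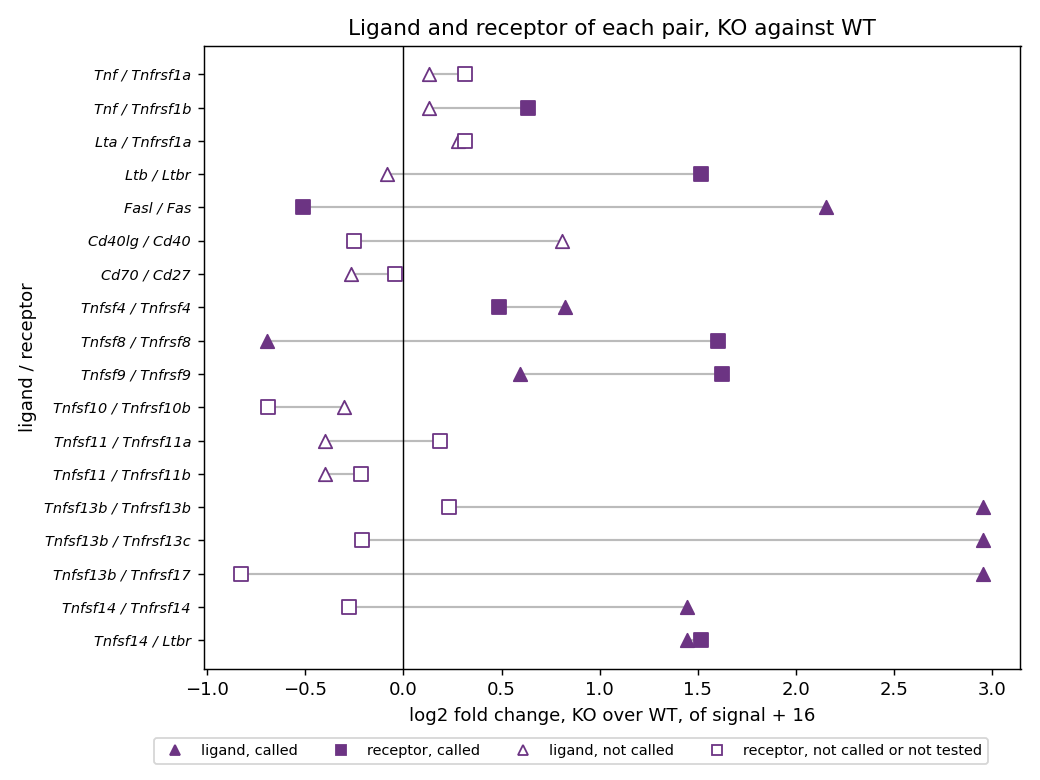
Log2 fold change, KO over WT, of signal + 16 for ligand (triangle) and receptor (square) of 18 pairs, filled where called. Where both partners were called, they lie on opposite sides of 0 for Fasl and Fas and for Tnfsf8 and Tnfrsf8. Both are filled to the right of 0 in 3 pairs. Other pairs that straddle 0 have a partner that was not called or not tested.

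Several members lie next to each other in the genome, in the gene order of assembly GRCm38.p6. All but Cd27 of the 7 T cell receptors of the family lie on chromosome 4, among them the 5 that rose. The shared chromosome of those 5 thus follows largely from the choice of the group. Tnfrsf14 and Tnfrsf25 on the same chromosome were not called, and the ligand gene Tnfsf8 there fell (log2 fold change -0.70). Tnfrsf4 and Tnfrsf18 are direct neighbours and had log2 fold changes of 0.49 and 0.50. Tnfrsf1b and Tnfrsf8, also direct neighbours, differed more, with 0.63 and 1.60. On chromosome 1 the risen ligand genes Tnfsf4 and Fasl are separated by 1 protein-coding gene. On chromosome 17 Cd70, which was not called, lies between Tnfsf9 and Tnfsf14, which both rose.

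Other genes of TNF receptor signalling were read from a list of 57 genes, of which 50 could be measured by a probe set of their own, and all 50 passed the filter. Of these 7 rose, 3 fell and 40 were not called. The called share was 20%, beside 20.3% of all genes, and the median log2 fold change was 0.011, so the list as a whole sat at the background. The largest rise was that of Mlkl, the effector of necroptosis, with signals of 561 and 599 in KO cells, against 116 and 135 in WT cells (log2 fold change 2.08 ± 0.20, adjusted p = 0.000314). Ripk3, the kinase that activates Mlkl, had 1532 and 1325 in KO cells, against 971 and 936 in WT cells, and rose less (log2 fold change 0.57 ± 0.13, adjusted p = 0.0219). The other genes grouped with Mlkl as the death arm, Casp8 (-0.21 ± 0.14), Cflar (0.21 ± 0.13), Bid (-0.65 ± 0.20) and Diablo (-0.33 ± 0.18), were not called, values in parentheses being log2 fold changes ± SE.

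Among genes that edit or bind ubiquitin chains at receptor complexes 3 of 13 rose (23.1%, beside 10.5% of all genes). They were Tnip2, which binds the deubiquitinase A20, with 642 and 825 in KO cells, against 194 and 252 in WT cells (log2 fold change 1.65 ± 0.21, adjusted p = 0.00123), the deubiquitinase gene Cyld (0.51 ± 0.12) and Usp18 (1.18 ± 0.14), a protease for the ubiquitin-like protein Isg15. Tnfaip3, which encodes A20 and is a target of NF-kappaB, was not called (0.31 ± 0.15), nor were Birc2 (0.20 ± 0.13) and Birc3 (-0.20 ± 0.10), ligases that join Traf2. Of 10 NF-kappaB subunits and inhibitors 1 was called (10%, beside 20.3% of all genes). It was Nfkbid, an atypical inhibitor, with signals of 977 and 926 in KO cells, against 1814 and 1919 in WT cells (log2 fold change -0.96 ± 0.12, adjusted p = 0.00129). Nfkbia, an inhibitor gene that NF-kappaB itself induces, had 27914 and 22977 in KO cells, against 27268 and 30756 in WT cells (log2 fold change -0.19 ± 0.11, adjusted p = 0.278), and Rela (0.10 ± 0.11), Relb (0.018 ± 0.14) and Nfkb2 (-0.025 ± 0.18) lay close to 0.

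Among kinases and adaptors the kinase gene Ikbke fell (-1.11 ± 0.17) and so did Traf3ip3 (-0.76 ± 0.14), while Ripk3, counted here, rose and 16 of 19 were not called. The called share of this part was 15.8%, beside 20.3% of all genes. Map3k14, the kinase of the alternative NF-kappaB pathway, had 352 and 520.5 in KO cells, against 588 and 584 in WT cells (log2 fold change -0.44 ± 0.20, adjusted p = 0.185). Of 3 genes that shed ligands and receptors from the membrane, Rhbdf2, a partner of the protease Adam17, rose to 709 ± 168 in KO cells, against 278 ± 49.8 in WT cells (signal, mean ± SD, n = 2 each), with a log2 fold change of 1.29 ± 0.22. Adam10, a protease that cleaves Fasl and other ligands, rose by less (0.40 ± 0.10), and Adam17 was not called (0.21 ± 0.13). Thus 2 of the 3 shedding genes rose (66.7%, beside 10.5% of all genes). The count of rises in this list was 3 without the intensity trend and 4 without WT array 1, and the count of falls was 5 without KO array 1 and 8 without KO array 2.

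**Figure D4:**
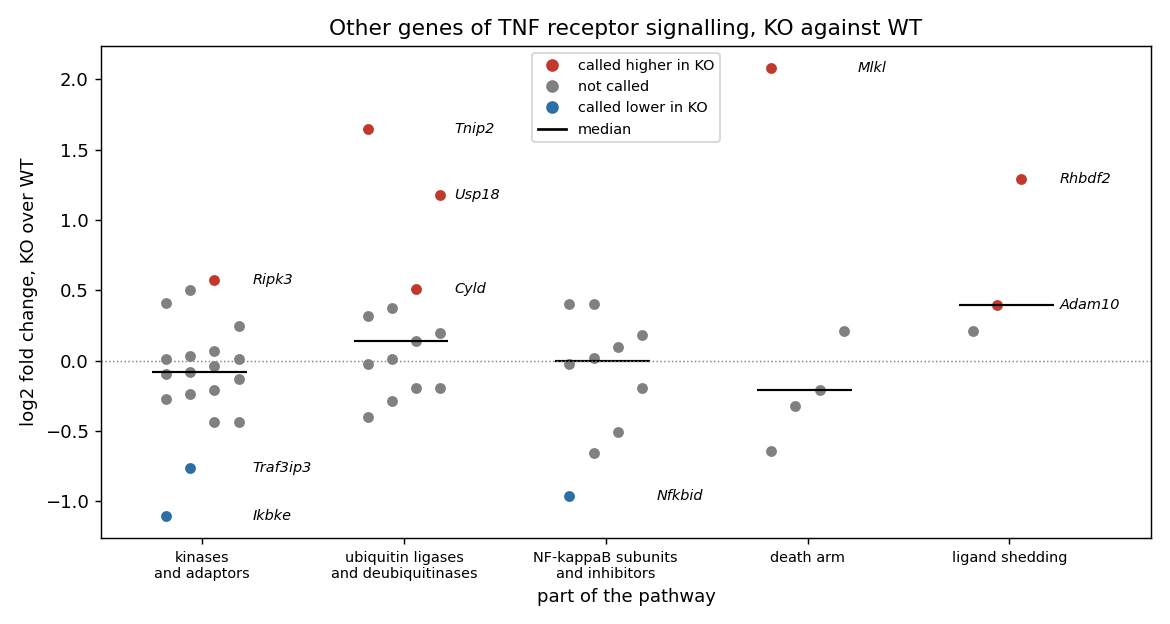
Log2 fold change, KO over WT, of signal + 16 for the 50 measured genes of the signalling list in 5 parts, with called genes named, red where higher and blue where lower in KO cells, others grey, and a line at each part's median. Most genes lie near 0, and Mlkl and Tnip2 stand highest.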

How the data were processed

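RNA of KO and WT cultures, 2 each, was hybridised to 4 arrays. The authors deposited intensity values on a linear scale for each probe set, made with MAS5 per the submitters' processing notes, whose version and settings are not given in the sources used here. Medians of the arrays were 56.5 to 62.6, and the mean left after trimming 2% at either end did not differ between arrays. A difference in total RNA per cell is lost by such scaling. Scanner files were not used here.

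Symbols were taken from the array platform's annotation, and all 43 members matched RefSeq genes of GRCm38.p6. A gene was read from its probe set of highest mean log2 signal, among those naming no other gene. By the mean of linear signals another probe set would be read for Tnfrsf11b, 1 of 43 members. Control probe sets (64) and the 40% with the lowest mean log2(signal + 16) were removed, which kept 27022. Groups came from the titles, and limma 3.58.1 under R 4.3.3 (lmFit, then eBayes with a trend, two-sided) gave 2 residual and 6.41 prior degrees of freedom. With 2 arrays against 2, no exact permutation p can fall under 0.333. The median log2 fold change over tested probe sets, -0.079, was not subtracted. The number of arrays limits the precision. The fit was tested on simulated data.

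Members, lists, pairs, motifs and tests were chosen with earlier results of these data known, and the rule for naming allowed every member. RefSeq promoters were found for 34 members by symbol. Alternatives tried were pseudocounts of 1 and 64, no filter and a filter of 60%, quantile normalization, median centring, no trend, a block for the array number, removal of probe sets marked _x_at or _s_at, the mean of a gene's probe sets that passed the filter, and omission of single arrays. Deviations of same-numbered arrays from their group means correlated at 0.010, so the numbers were not taken as pairs.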

Additional observations from a re-analysis of the deposited data

How the results depend on the processing

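With 2 arrays per genotype, 9 of 15 called members lost their call without the intensity trend and 9 when some array was left out. Without the trend 5 members were called higher and 1 lower, 3 and 1 genes of the signalling list, and 727 and 456 probe sets in all, against 12 and 3, 7 and 3, and 2131 and 2477 with it. When each array was left out in turn, 7 to 10 members were called higher and 1 to 3 lower, 4 to 7 and 3 to 8 genes of the signalling list, and 1611 to 1817 and 1163 to 2570 probe sets. The lowest of these counts came without WT array 1 (7 members and 4 signalling genes higher; without KO array 2 also 7 members) or without WT array 2 (1 member and 1163 probe sets lower), and the 8 without KO array 2. With the array number as a replicate block 12 members were called higher and 3 lower, but Ltbr lost its call (adjusted p = 0.0503), Tnfrsf23 gained one (adjusted p = 0.0379), and 8 genes of the signalling list were called higher and 5 lower. The block changed no other call of a member. With the probe sets of a gene averaged 5 genes of the signalling list were called lower, and Tnfrsf12a, which was not called, turned to -0.044. No called member changed direction under any alternative. Of the members not called, 7 had log2 fold changes on both sides of 0 when arrays were left out in turn: Cd70 (-1.24 to 0.70), Tnfrsf11a (-0.21 to 0.57), Tnfrsf13c (-0.63 to 0.21), Tnfrsf12a (-0.14 to 0.16), Cd27 (-0.14 to 0.053), Tnfrsf25 (-0.23 to 0.0032) and Traf2 (-0.0060 to 0.18). Only Traf1, Fasl, Tnfrsf9 and Tnfsf13b of 15 called members passed under every alternative in which they were tested. Tnfsf13b was too dim to be tested under the stricter filter, and a further probe set of it was not called (log2 fold change -0.15 ± 0.39). Dim signals had wider errors: the median SE was 0.42 for the 9 tested members with both means under 100, against 0.17 for all 41. The cause was not tested for any of these changes.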
